A study of Mus musculus with 9 samples.

Results

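The 4 Id genes (Id1, Id2, Id3 and Id4), which encode the inhibitors of DNA binding, were described in cells cultured from the calvaria (the skull vault) of newborn mice. They were taken by symbol from a table of read counts for 25860 genes, and all 4 were present and passed the filter on low counts. The family was chosen by the measured IRE1KO against WT difference of Id1 in these libraries, so the difference between the groups is given for its members as a description and is not offered as a test.

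The groups were 5 IRE1KO libraries and 4 WT libraries. IRE1, the product of Ern1, is a kinase and endoribonuclease that senses unfolded protein in the endoplasmic reticulum. All libraries came from flow-sorted Osx1-Cre cells, so the WT cells also stand under the Osx1-Cre label. In Osx1-Cre mice the promoter of Sp7 (osterix), which encodes a regulator of osteoblast formation, drives the Cre recombinase. The labels name neither the Ern1 allele nor the strain. Each library pooled cells of 3 to 5 pups aged 2 to 4 days, grown with 10% serum to 90% confluence, and the labels name no added agent.

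Id proteins are helix-loop-helix proteins without the basic region that contacts DNA. They pair with E proteins and some other helix-loop-helix factors and keep these off their E-box sites. Bone morphogenetic proteins (BMPs) act through receptors that phosphorylate SMAD1, SMAD5 and SMAD9, and Id1, Id2 and Id3 are classical early targets of these SMADs. In mice, Id1 and Id3 have been linked to the growth of calvarial bone, and Id4 has been reported to favour osteoblast over adipocyte differentiation. The comparison asks how these genes stand in cells labelled as lacking IRE1.

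The libraries held 18784636 to 22028075 counts each. Ern1 was at 49.8 to 55.8 CPM in IRE1KO, against 41.5 to 54.2 CPM in WT (CPM, counts scaled to a common library size), so the gene total gave no check of the labels (it passed upwards in edgeR without WT library 1, adjusted p = 0.0467). Col1a1, which encodes type I collagen, stood at 23304 ± 1126 CPM (SD, n = 5) in IRE1KO, against 20395 ± 7219 CPM (SD, n = 4) in WT, whereas Bglap, osteocalcin, was near the floor of 3 counts, which is 0.136 to 0.16 CPM. The early osteoblast genes Runx2 and Sp7 were present at 63.6 to 69.4 and 15.6 to 21.2 CPM in IRE1KO, against 59.8 to 75.1 and 13.6 to 24.6 CPM in WT. Of 7 tested osteoblast markers none passed in edgeR, and 2 reached an unadjusted p under 0.05, Ibsp (0.546 ± 0.390 CPM in IRE1KO, 2.29 ± 1.29 CPM in WT) and Spp1 (845 ± 107 CPM in IRE1KO, 1448 ± 586 CPM in WT). WT library 4 stood apart on the first principal component of all tested genes, at 56.7 against -23.4 to 15.1 for the other 8 libraries. Results that rest on single libraries are given with and without them. The genes called at an adjusted p under 0.05 differed between fits. They were 87 of 13712 tested in the main edgeR fit and 583 of 17797 in DESeq2. Without WT library 1 edgeR called 1192 of 13820, and without WT library 4 it called 399 of 13780.

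The 4 genes lie on separate chromosomes (GENCODE M21, GRCm38, the assembly that mm10 names). Id1 (ENSMUSG00000042745) is on chromosome 2 from 152736251 to 152737410 and Id2 (ENSMUSG00000020644) on chromosome 12 from 25093799 to 25097140, on the reverse strand. Id3 (ENSMUSG00000007872) is on chromosome 4 from 136143497 to 136145755 and Id4 (ENSMUSG00000021379) on chromosome 13 from 48261228 to 48266026. An antisense gene, A330033J07Rik, overlaps Id4 by 1396 bases and the long non-coding Gm49291 by 1364 bases, both on the opposite strand and neither listed under its identifier in the counts. Since the strand setting of the counting is not given in the sources used here, Id4 counts could include reads from them. The promoters of Id2, Id3 and Id4 were taken from RefSeq (GRCm38.p6), from 250 bases before to 50 bases after the start. These are 3 of 4 members, and that of Id1 was not analysed here. Capitals mark GGCGCC, a GC-rich motif bound by BMP-activated SMADs, and CCAAT on either strand (ATTGG on the reverse), the box bound by NF-Y.

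Id2, chr12:25096043-25096342, reverse strand: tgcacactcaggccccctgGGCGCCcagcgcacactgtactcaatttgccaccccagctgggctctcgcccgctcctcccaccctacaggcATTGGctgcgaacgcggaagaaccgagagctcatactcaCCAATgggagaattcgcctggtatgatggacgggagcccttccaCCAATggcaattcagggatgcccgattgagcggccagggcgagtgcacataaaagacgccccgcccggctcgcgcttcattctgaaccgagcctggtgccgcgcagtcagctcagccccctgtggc
Id3, chr4:136143572-136143871, forward strand: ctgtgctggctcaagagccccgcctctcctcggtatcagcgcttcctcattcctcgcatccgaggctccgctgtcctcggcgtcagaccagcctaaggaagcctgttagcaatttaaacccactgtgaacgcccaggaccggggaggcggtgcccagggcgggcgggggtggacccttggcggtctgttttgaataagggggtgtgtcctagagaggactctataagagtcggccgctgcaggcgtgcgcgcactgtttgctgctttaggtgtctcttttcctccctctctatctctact
Id4, chr13:48260866-48261165, forward strand: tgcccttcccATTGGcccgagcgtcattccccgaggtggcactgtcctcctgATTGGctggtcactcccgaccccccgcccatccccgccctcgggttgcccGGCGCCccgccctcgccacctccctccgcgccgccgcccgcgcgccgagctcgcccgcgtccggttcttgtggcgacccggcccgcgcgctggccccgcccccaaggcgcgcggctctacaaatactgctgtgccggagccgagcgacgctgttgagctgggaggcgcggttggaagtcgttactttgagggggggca

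Id2 held GGCGCC and 3 CCAAT boxes and Id4 held GGCGCC and 2 CCAAT boxes, while Id3 held neither. Of 32851 promoter windows of this length in the same RefSeq table, 11.9% held GGCGCC and 37.4% held CCAAT on either strand. The E-box CANNTG, the kind of site that E proteins bind, occurred once in Id2 as CAGCTG and in 72.3% of all windows. ACGTG, the core of sites for stress factors such as XBP1s, and TATAAA were in none of the 3 windows, and in 19.6% and 13.6% of all windows. GC content was 63.3% in Id2, 60.0% in Id3 and 73.3% in Id4, against a median of 52.7%. Id2 and Id4 thus shared both marked motifs, and Id3 held neither. The windows of Id2 and Id3 lie inside the gene spans given above. A link between motifs and levels was not tested. A match of letters is a description of the sequence and shows no binding.

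Per kb of exon, Id3 was the most abundant member in every library, followed by Id1, Id2 and Id4. On this scale Id3 averaged 64.2 ± 2.74 CPM per kb (SD, n = 5) in IRE1KO, against 89.2 ± 14.9 CPM per kb (SD, n = 4) in WT. Id1 averaged 16.9 ± 0.749 CPM per kb in IRE1KO, against 28.1 ± 2.78 CPM per kb in WT. The ranges of neighbours in this order did not overlap in either group, and the order was the same in 5 of 5 IRE1KO and 4 of 4 WT libraries. For Id1 and Id2 in WT, the lowest library for Id1 was at 25.8 CPM per kb and the highest for Id2 at 18.8. With the length of the longest transcript in place of all exons, Id2 and Id3 were higher (11.3 and 90.0 CPM per kb in IRE1KO, 17.4 and 125.1 in WT) and the order of the means stayed the same.

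Id3 made up most of the summed Id level per kb, with a share of 68.8% ± 1.04 (SD, n = 5) in IRE1KO, against 66.3% ± 0.763 (SD, n = 4) in WT. The share of Id1 was 18.1% ± 0.902 in IRE1KO, against 21.0% ± 1.45 in WT. The sum of all 4 was 89.3 to 98.7 CPM per kb in IRE1KO, against 113.5 to 163.2 CPM per kb in WT, so the groups did not overlap. Among all tested genes, Id3 stood at the 95.9th percentile of level per kb in IRE1KO, against the 97.4th in WT, and Id4 at the 32.2nd and 30.8th.

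**Figure D1:**
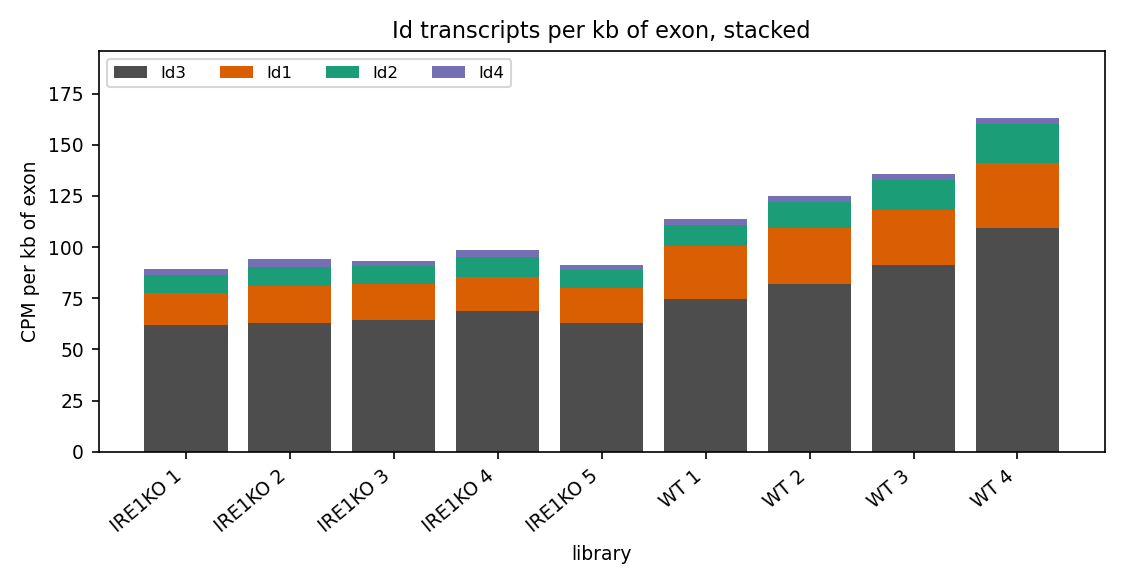
Level per kb of exon (vertical axis, CPM per kb) of Id3, Id1, Id2 and Id4, stacked from the bottom, in each of the 5 IRE1KO and 4 WT libraries (horizontal axis). Id3 makes up most of every bar, and the summed level is 89.3 to 98.7 in IRE1KO, against 113.5 to 163.2 in WT.

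Id1, Id2 and Id3 were lower in IRE1KO than in WT in every library of these groups, and Id4 was not. Id1 was at 18.3, 20.5, 20.1, 19.1 and 19.8 CPM in IRE1KO libraries 1 to 5, against 29.9, 31.6, 31.5 and 37.3 CPM in WT libraries 1 to 4. The groups were separated by 9.40 CPM, and WT library 4 was the highest. The means were 19.6 ± 0.869 CPM (SD, n = 5) in IRE1KO, against 32.6 ± 3.22 CPM (SD, n = 4) in WT, a log2 fold change of -0.73 ± 0.068 SE and a ratio of 0.601 of IRE1KO to WT. This difference is the value that led to the choice of the family.

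Id2, which is also expressed in many progenitor cells, was at 21.0, 22.8, 21.9, 23.9 and 21.3 CPM in IRE1KO, against 24.7, 30.7, 35.4 and 45.9 CPM in WT libraries 1 to 4. The IRE1KO libraries were close together and the WT libraries spread widely, so that only 0.784 CPM separated WT library 1 from the highest IRE1KO library. The log2 fold change was -0.62 ± 0.15 SE, close in size to that of Id1 but with a larger error.

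Id3, the closest relative of Id1 in its known roles in bone, was at 110.6, 113.1, 115.5, 123.3 and 112.7 CPM in IRE1KO, against 133.7, 147.1, 163.2 and 195.5 CPM in WT libraries 1 to 4. The groups did not overlap, IRE1KO library 4 was the highest of its group, and the WT libraries stood in the same order as for Id2. The log2 fold change was -0.47 ± 0.097 SE.

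Id4 was at 12.2, 15.7, 9.56, 14.0 and 9.64 CPM in IRE1KO, against 11.4, 12.2, 11.5 and 12.2 CPM in WT. Here the WT libraries were close together and lay inside the range of the IRE1KO libraries, which were spread on both sides of them. The log2 fold change was 0.048 ± 0.15 SE, and it ranged from -0.058 to 0.12 when single libraries were left out.

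**Figure D2:**
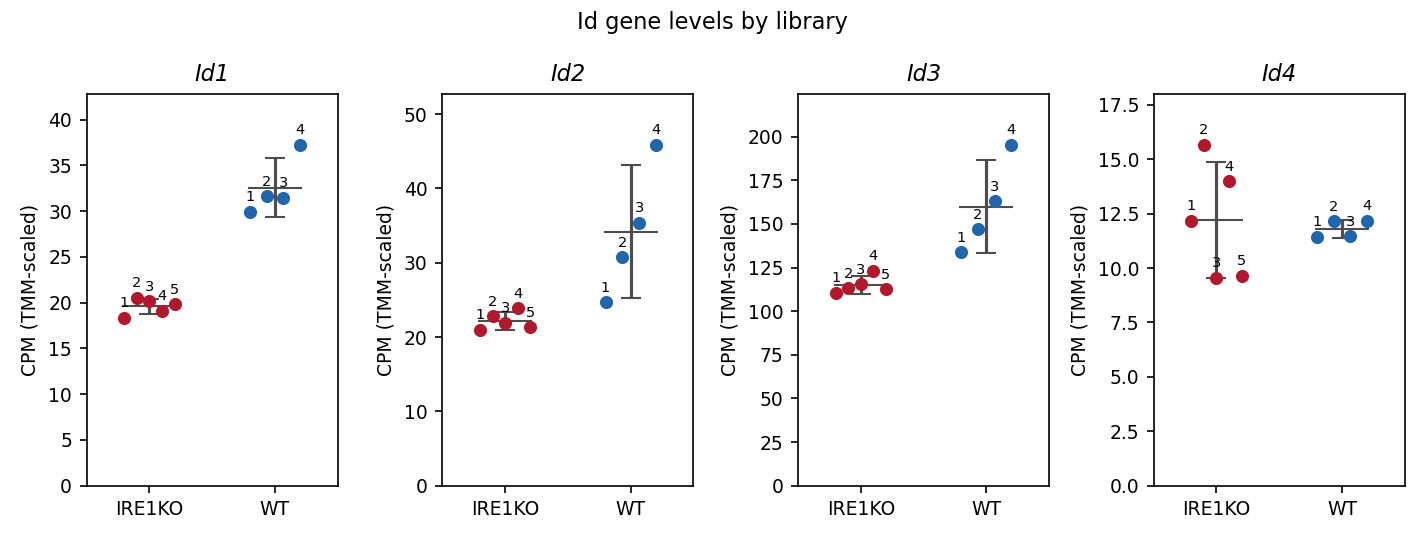
Level of each Id gene (vertical axis, CPM after TMM scaling, from 0) in IRE1KO, against WT libraries (points, numbered by replicate), with horizontal bars at the mean and error bars of 1 SD. For Id1, Id2 and Id3 every IRE1KO point lies below every WT point, and for Id4 the WT points (11.4 to 12.2 CPM) lie inside the IRE1KO range (9.56 to 15.7 CPM).

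In the edgeR fit across all 13712 tested genes, 1 of 4 members, Id1, passed an adjusted p of 0.05 and was lower in IRE1KO, against 0.634% of all tested genes, 0.379% lower and 0.255% higher. Groups that did not overlap were seen for 3 of 4 members, each lower in IRE1KO, and for 6.93% of all tested genes, 3.28% lower and 3.65% higher. Since the same contrast led to the choice of the family, nothing is read from either count. The members' median log2 fold change was -0.55, against -0.0050 for all tested genes.

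The spread between libraries differed between members and between groups. In IRE1KO, Id1 varied by 4.44% between libraries (coefficient of variation), below the 5.01% that counting error alone gives at its mean of 398 counts, and Id2 by 5.34% against 4.71%. In WT, Id1 varied by 9.88%, Id2 by 26.2% and Id3 by 16.7%, against counting errors of 3.97%, 3.88% and 1.79%. Id4 went the other way, with 22.0% in IRE1KO, against 3.50% in WT, against 6.34% and 6.59%. The biological coefficient of variation that edgeR fitted over both groups was 8.50% for Id1 and 16.3% for Id2, where the trend at these levels was 13.6% and 13.2%. Id1 was thus the steadier and Id2 the more variable of this pair relative to genes of like abundance. This is a description, since the family was chosen by the Id1 difference, which a small spread makes clearer.

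How deviations of single libraries from their group mean go together between members did not enter the choice of the family. Id2 and Id3 deviated together. Over the 9 libraries the deviations of log2 CPM had a Pearson r of 0.98 and a Spearman rho of 0.98, each with p = 0.00174 by exact permutation of libraries within groups (two-sided) and an adjusted p of 0.0104 over the 6 pairs of members. Id2 deviated by -0.43, -0.12, 0.086 and 0.46 in WT libraries 1 to 4 and Id3 by -0.24, -0.11, 0.044 and 0.30. In IRE1KO, library 4 was the highest for both, at 0.11 for Id2 and 0.10 for Id3. Without WT libraries 1 and 4, which lay farthest from the median of Id2, r was 0.92 and rho 0.96 (n = 7, exact permutation p = 0.0208 and 0.0167). Variation between libraries was widely shared, with 45.9% of the variance of all tested genes on the first principal component. By r with Id2, Id3 ranked 27th among the 11091 genes that averaged 5 CPM or more. These p-values therefore do not set the pair apart from other genes.

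No other pair of members passed the adjusted threshold. For Id1 with Id2, r was 0.82 and rho 0.65 (n = 9, exact permutation p = 0.0493 and 0.0892, adjusted p = 0.141 and 0.219), and for Id1 with Id3, r was 0.79 and rho 0.63 (n = 9, exact permutation p = 0.0705 and 0.110, adjusted p = 0.141 and 0.219). Both values rested on WT library 4, since without it r was 0.44 and 0.30, and without the pair of libraries farthest from the median of Id1, IRE1KO library 2 and WT library 4, r was 0.46 and 0.43 (n = 7, exact permutation p = 0.299 and 0.312). For Id4, r was 0.072 with Id1, 0.22 with Id2 and 0.14 with Id3 (n = 9, exact permutation p = 0.789, 0.120 and 0.454; rho 0.30, 0.45 and 0.32, p = 0.406, 0.150 and 0.335), and no adjusted p was under 0.05. Without the libraries farthest from the median, these r were -0.58, 0.39 and 0.12 (n = 7).

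**Figure D3:**
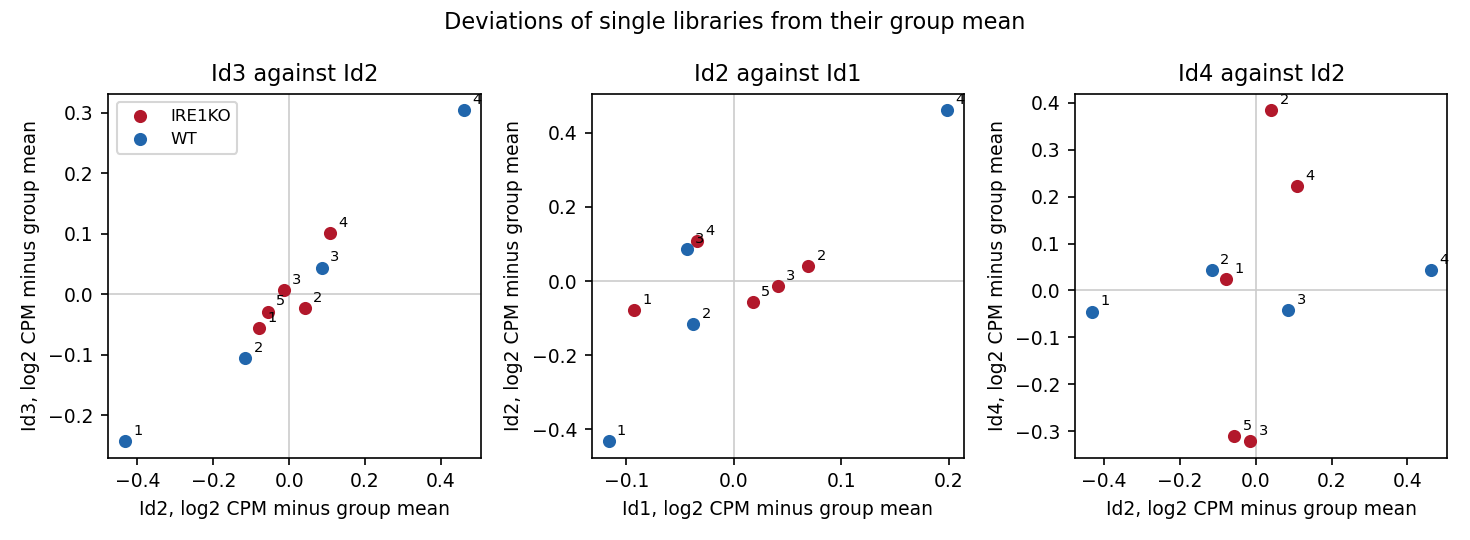
Deviation of log2 CPM from the group mean in each library (points, numbered by replicate, IRE1KO and WT by colour), for Id3 against Id2, Id2 against Id1 and Id4 against Id2 (both axes in log2 units). Id2 and Id3 fall along a line (r = 0.98), WT library 4 is far from the others for Id1 and Id2 (r = 0.82 with it and 0.44 without), and Id4 is spread widely in IRE1KO (r = 0.22 with Id2).

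The genes whose deviations were most like those of a member, among the 11091 genes that averaged 5 CPM or more, were not the other Id genes. For Id1 they were 2610002J02Rik, Kdm1b, a histone demethylase, and Fads1, a fatty acid desaturase, with r of 0.97 each. For Id2 they were Zmat1, Fuca1, a lysosomal fucosidase, and Ggcx, the vitamin K-dependent gamma-carboxylase, with r of 0.99 each, and Id3 ranked 27th. For Id3 they were Cnpy2, Mvk, which encodes mevalonate kinase, and Zmat1, with r of 0.99 each, and Id2 ranked 13th. For Id4 they were Rpl5, a ribosomal protein (r = 0.97), Rsph3a and Tmem90b (r = 0.92 each). Values over 9 libraries that share 1 wide axis of variation are high for many genes, and they are given as a description. Of these genes Tmem90b rose in IRE1KO, at 16.9 ± 3.64 CPM (SD, n = 5), against 8.77 ± 0.513 CPM (SD, n = 4) in WT (log2 fold change 0.95 ± 0.15 SE, adjusted p = 0.0436, edgeR), and the others did not pass, though Zmat1 passed downwards without WT library 1 (adjusted p = 0.0352 in edgeR). The Tmem90b call held without WT library 1 or 4 and was lost without any other library (adjusted p up to 0.141 in edgeR).

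Summed markers of glia and of adipocytes were lower in every IRE1KO library than in any WT library, as were Id1, Id2 and Id3. Markers of cell types are given for whole lists. The 7 glial markers, among them Sox10 and S100b, summed to 11.1 to 16.2 CPM in IRE1KO, against 18.7, 48.9, 56.1 and 78.4 CPM in WT libraries 1 to 4. Of 5 tested glial markers, 1 fell in edgeR (Ngfr, the p75 neurotrophin receptor) and 4 did not pass, with a median log2 fold change of -3.34. That was 20.0% called, against 0.634% of all tested genes, 0.379% lower. DESeq2 called 6 glial markers lower, and limma voom and edgeR with no filter called 0. By mean level S100b was the largest part of the glial sum in both groups (8.99 CPM, IRE1KO; 17.1 CPM, WT). Ngfr came next (1.43 CPM, IRE1KO; 15.5 CPM, WT). The 8 adipocyte markers summed to 43.5 to 53.5 CPM in IRE1KO, against 70.5, 89.4, 114.2 and 115.5 CPM in WT libraries 1 to 4. That sum is mostly Lpl, by mean level (31.3 CPM, IRE1KO; 66.7 CPM, WT). Of 4 tested, 3 fell in edgeR (Plin4, Fabp4 and Lpl), which is 75.0%, against the same 0.634% of all tested genes. These glial and adipocyte calls held without WT library 1 or 4, with up to 6 glial markers called, and were lost without any other library. With limma voom 0 adipocyte markers were called, and with no filter 1 (Plin4). Adipoq and Plin1 did not pass the filter on low counts, and Cidec and Lep, markers of mature adipocytes, were at 0 in every library. None of the glial markers was at 0 in every library. The WT libraries thus stood in the same order for both sums as for Id2 and Id3. In IRE1KO, both sums were lowest in library 4, where Id2 and Id3 were highest. Whether these orders hold without Lpl, S100b and Ngfr was not tested. Id1 in WT library 1, the WT library with the lowest glial sum, was at 29.9 CPM, against 31.6 and 31.5 CPM in WT libraries 2 and 3.

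Endothelial cells also express Id1 and Id3 in many tissues. The 8 endothelial markers summed to 20.0 to 23.3 CPM in IRE1KO, against 21.0 to 34.0 CPM in WT. Of 7 tested, Pecam1 fell in edgeR (14.3%, against 0.634% of all tested genes), and 6 did not pass. Pecam1 was at 0.0531 to 0.291 CPM in IRE1KO, around the floor of 3 counts, against 0.562 to 0.924 CPM in WT. Its call showed the same dependence on single libraries, and limma voom and edgeR with no filter called 0. Flt1 alone had a positive log2 fold change, 0.87 ± 0.29 SE, and passed upwards without WT library 1. That fit called 466 of 13820 tested genes higher. The macrophage and osteoclast markers summed to 315.5 to 491.6 CPM in IRE1KO, against 206.1 to 467.4 CPM in WT, with no member past the threshold, and the chondrocyte markers to 711.1 to 1405 CPM in IRE1KO, against 1369 to 1429 CPM in WT. That sum is mostly Col2a1. All 7 tested chondrocyte markers had a negative log2 fold change, with a median of -0.44, none passed in edgeR, and Comp was at 23.6 ± 10.8 CPM in IRE1KO, against 62.8 ± 39.4 CPM in WT. Skeletal muscle markers other than Acta1 and Ryr1 did not pass the filter on low counts, and Myf5 was at 0 in every library. The part of these cell types in the levels of the Id genes was not tested, and in bulk libraries fewer cells of a type cannot be told apart from less RNA per cell.

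Among 15 other genes known as targets of BMP signalling, 14 were tested, 1 fell (7.14%, against 0.634% of all genes) and none rose. Of the 14, 11 had a negative log2 fold change, and the median was -0.21, against -0.0050 for all tested genes. Dlx2, a homeobox gene of cranial neural crest cells, was at 7.72, 6.09, 9.03, 7.70 and 8.34 CPM in IRE1KO, against 12.1, 14.8, 14.6 and 11.6 CPM in WT. The groups did not overlap, as for 6.93% of all tested genes. The log2 fold change was -0.77 ± 0.12 SE (Benjamini-Hochberg adjusted p = 0.0436 in the edgeR quasi-likelihood test). The call was lost without any of IRE1KO libraries 1 to 5 and without WT library 2 or 3 (adjusted p up to 0.145 in edgeR), and held without WT library 1 or 4.

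The feedback inhibitors of the pathway did not pass in edgeR, and of these DESeq2 called only Bambi lower (adjusted p = 0.0215). DESeq2 also called Atoh8, which is not such an inhibitor, lower (adjusted p = 0.0283). Bambi, a pseudoreceptor that blocks BMP and TGF-beta receptors, was at 8.66 to 9.46 CPM in IRE1KO, against 10.1 to 13.1 CPM in WT (log2 fold change -0.37 ± 0.086 SE, adjusted p = 0.0908 in edgeR). Smad6 and Smad7, the inhibitory SMADs, were at -0.23 ± 0.086 SE and -0.36 ± 0.18 SE on the log2 scale of the fold change, and Smad9 at -0.30 ± 0.096 SE. Within WT these 3 SMAD genes stood in another order than the Id genes. Smad7 was at 48.6, 47.0, 37.4 and 23.4 CPM, Smad6 at 39.5, 41.6, 36.4 and 29.9 CPM and Smad9 at 23.8, 23.6, 20.8 and 17.5 CPM in WT libraries 1 to 4. WT library 4, the highest for Id1, Id2 and Id3, was the lowest WT library for all 3. Without WT library 4, Smad6, Smad7 and Smad9 passed downwards with Dlx2, and without WT library 1, Bambi, Atoh8 and Dlx3 did so with Dlx2. These fits called 248 of 13780 and 726 of 13820 tested genes lower.

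Atoh8, a helix-loop-helix gene induced by BMP, was at 34.2 ± 1.98 CPM (SD, n = 5) in IRE1KO, against 40.2 ± 2.36 CPM (SD, n = 4) in WT (log2 fold change -0.23 ± 0.057 SE). The osteoblast and cranial targets Msx2, Runx2 and Sp7 had log2 fold changes of 0.089 ± 0.11 SE, 0.021 ± 0.062 SE and -0.024 ± 0.17 SE. Msx1 was higher in IRE1KO, at 22.1 ± 1.17 CPM, against 19.7 ± 1.64 CPM in WT. Its log2 fold change was 0.16 ± 0.066 SE (unadjusted p = 0.0339, adjusted p = 0.258, edgeR). Msx1 was named after its value was seen. Grem1, a secreted BMP antagonist that BMP itself induces, was at 129.1 to 160.2 CPM in IRE1KO, against 79.8 to 227.8 CPM in WT.

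**Figure D4:**
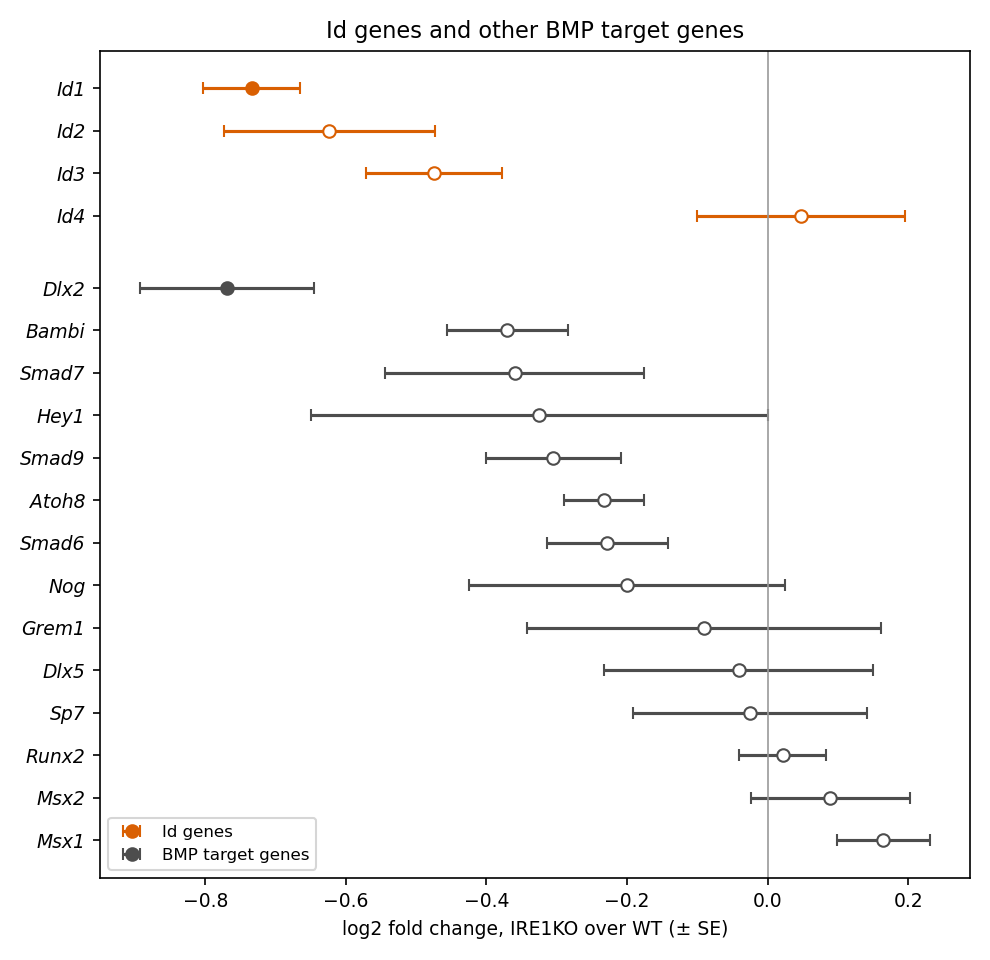
Log2 fold change of IRE1KO over WT (horizontal axis, bars of 1 SE) for the 4 Id genes and 14 other tested BMP target genes, sorted within each set. Filled points passed an adjusted p of 0.05 in the edgeR fit; Id1 (-0.73) and Dlx2 (-0.77) are the filled points, and 11 of the 14 other targets lie left of 0.

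Among BMP ligands and secreted antagonists, 2 of 20 tested genes rose in edgeR, none fell and 18 did not pass. That was 10.0% called, against 0.634% of all tested genes, 0.255% higher. An unadjusted p under 0.05 was reached by 7 of the 20 in edgeR, against 16.5% of all tested genes. DESeq2, which called 583 of 17797 genes, called Bmp6, Gdf6 and Bmper higher and Bmp7 lower. Gdf6, a BMP-family ligand needed for normal calvarial sutures in mice, was at 16.4, 17.7, 17.3, 14.4 and 18.1 CPM in IRE1KO, against 6.38, 5.13, 9.15 and 9.35 CPM in WT (log2 fold change 1.16 ± 0.17 SE, adjusted p = 0.0416, edgeR). Bmper, a secreted protein that binds BMPs and can hinder or help them, was at 126.1, 128.3, 105.8, 122.0 and 101.4 CPM in IRE1KO, against 84.0, 75.1, 80.4 and 88.6 CPM in WT (log2 fold change 0.51 ± 0.083 SE, adjusted p = 0.0452, edgeR). The groups did not overlap for either gene, as for 6.93% of all tested genes, 3.65% higher in IRE1KO. Both calls held without WT library 1 or 4 and were lost without any other library (adjusted p up to 0.126 for Gdf6 and 0.141 for Bmper in edgeR). Bmp7, at 2.39 ± 0.741 CPM in IRE1KO, against 6.04 ± 2.76 CPM in WT, did not pass in edgeR (adjusted p = 0.109, against 0.00646 in DESeq2), and the list's median log2 fold change was -0.21.

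No BMP receptor, SMAD or intracellular modulator passed among 17 tested, and the median log2 fold change was 0.048. An unadjusted p under 0.05 was reached by 2 of the 17 in edgeR, Bmpr1b and Acvrl1, against 16.5% of all tested genes, and DESeq2 called none. Bmpr1b, a type I receptor of skeletal cells, was at 24.3 to 27.5 CPM in IRE1KO, against 12.2 to 25.4 CPM in WT, and Acvrl1, another type I receptor, at 76.0 to 89.8 and 66.2 to 83.3 CPM. Ski, a SMAD corepressor, had a log2 ratio of -0.077 ± 0.036 SE. Without WT library 1, Acvrl1 and Bmpr1b passed upwards, in a fit that called 466 of 13820 tested genes higher.

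The E proteins and other helix-loop-helix partners of Id proteins had a median log2 fold change near 0. None of 11 tested passed in edgeR or DESeq2, 2 reached an unadjusted p under 0.05 in edgeR (16.5% of all tested genes did), and that median was 0.0019. Tcf3 (E2A), Tcf4 (E2-2) and Tcf12 (HEB) were at 101.7 ± 3.70, 173.3 ± 13.0 and 177.1 ± 5.49 CPM (SD, n = 5) in IRE1KO, against 101.6 ± 9.68, 201.1 ± 39.0 and 172.1 ± 4.83 CPM (SD, n = 4) in WT. Per kb of exon, Id3 was above and Id4 below each of these E proteins in both groups, also by the length of the longest transcript. Twist1, a partner of E proteins that restrains osteoblast maturation, had a log2 ratio of 0.099 ± 0.048 SE, and Hes1, a Notch target, one of -0.31 ± 0.10 SE. Heyl was low, at 0.445 ± 0.266 CPM in IRE1KO, against 1.90 ± 1.86 CPM in WT. Msc, Tcf21, Tcf15 and Hand2 were at 0 in every library. Without WT library 4, Hes1 passed downwards, in a fit that called 248 of 13780 tested genes lower.

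Cell cycle inhibitors, several of which E proteins activate and Id proteins hold down in other cell types, did not pass in any of 7 cases in edgeR or DESeq2, and 2 reached an unadjusted p under 0.05 in edgeR, against 16.5% of all tested genes. Cdkn1a (p21) was at 398.4 to 451.2 CPM in IRE1KO, against 229.1 to 441.4 CPM in WT, with WT library 4 the lowest. Cdkn1c (p57) was at 22.1 to 26.4 CPM in IRE1KO, against 28.6 to 69.9 CPM in WT, and Cdkn2b (p15) had a log2 ratio of -0.17 ± 0.067 SE. The median log2 fold change of the list was -0.16. Without WT library 4, Cdkn1c passed downwards, in a fit that called 248 of 13780 tested genes lower.

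Of 8 TGF-beta target genes, which mark the sister pathway that acts against BMP in many cells, none passed in edgeR or DESeq2, none reached an unadjusted p under 0.05 in edgeR, and the median log2 fold change was 0.040. Pmepa1, a feedback inhibitor of TGF-beta, was at 143.6 to 152.6 CPM in IRE1KO, against 100.4 to 169.9 CPM in WT, Smad3 at 91.7 to 99.5 and 81.3 to 94.9 CPM, and Tgfbi at 67.9 to 98.2 and 64.4 to 193.5 CPM. Without WT library 1, Pmepa1 and Atf3 passed upwards, in a fit that called 466 of 13820 tested genes higher.

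The genes around the members were examined for shared change. The 47 tested genes within 500 kb of a member had a median log2 fold change of -0.010. Against 0.634% of all tested genes, 1 of these 47 passed. That was Klf11, a Krüppel-like factor induced by TGF-beta, which starts 442525 bases from Id2 and fell by 0.45 ± 0.065 SE on the log2 scale (adjusted p = 0.0376, edgeR). It held without WT library 1 or 4 and was lost without any other library (adjusted p up to 0.136). It was named after its value was seen. None of the 21 tested neighbours of Id1 passed. Fuca1, whose deviations were among the most like those of Id2, starts 222762 bases from Id3.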

How the data were processed

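RNA was measured in 9 libraries of cultured, sorted Osx1-Cre calvarial cells, 5 IRE1KO and 4 WT, and the labels divide them into no batches. The authors deposited raw read counts per gene, not normalised. STAR, limma and mm10 are named in the submitters' processing notes, without their roles, while the counting program, the annotation release and whether strand was used were not given in the sources used here.

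Genes were filtered with filterByExpr, libraries scaled by TMM, and IRE1KO compared with WT by edgeR's quasi-likelihood test (edgeR 4.0.16, R 4.3.3) with Benjamini-Hochberg adjustment over 13712 tested genes and a threshold of 0.05. Each library is a replicate, and the labels give no litter, sort or day of culture. DESeq2 1.42.0, limma 3.58.1 (voom), DESeq2 size factors, no filter, a replicate block and leaving out each library were alternatives. Fold changes are IRE1KO over WT. Total counts of 18784636 to 22028075 per library put the floor of 3 counts at 0.136 to 0.160 CPM, which covers counting error only. Levels per kb used the union of GENCODE M21 exons. Deviations are log2 CPM (prior count 2) minus the group mean, tested by exact permutation within groups. The edgeR script was tested before use on simulated counts drawn independently for each gene and library. They held no shared axis of variation and no library apart, so that check does not cover these features of the data. Figures were drawn with matplotlib 3.10.9 in Python 3.11.15.

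The members and gene lists were chosen with earlier results of these data known. Named genes were the 4 members, the 3 genes with the smallest p and any called in each list, a fixed set of pathway genes and, for each member, the 3 genes averaging 5 CPM or more most like it. Neighbours were tested genes within 500 kb. 1 glial marker is not reported here, and the glial list was summed and counted without it.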

Additional observations from a re-analysis of the deposited data

Results flagged for a closer look

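Single libraries stood apart from the rest of their group in 3 of 84 groups of values checked by the gap to the nearest library over the range of the group, where chance flags about 1 in 20. Atoh8, a BMP-induced helix-loop-helix gene, was at 37.6 CPM in IRE1KO library 4, against 32.6 to 33.9 CPM in the other IRE1KO libraries. That library is also the highest of its group for Id2 and Id3. Cdkn1c, the cell cycle inhibitor p57, was at 69.9 CPM in WT library 4, against 28.6 to 33.6 CPM in the other WT libraries. Cnpy2, the gene most like Id3 in its deviations, was at 85.7 CPM in IRE1KO library 4, against 74.8 to 76.9 CPM in the other IRE1KO libraries.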

How the results depend on the processing

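Id1 kept its direction in all 14 alternatives, with log2 fold changes of -0.77 to -0.66 when single libraries were left out. Id2 (-0.75 to -0.45) and Id3 (-0.55 to -0.36) kept theirs too, and Id4 ranged from -0.058 to 0.12. The 87 genes called became 583 with DESeq2, 16 with limma voom, 45 with no filter and 2 to 1192 with a library left out (1192 without WT library 1, 399 without WT library 4, 2 to 8 without any of the others). Id members called were 3 with DESeq2 (Id1, Id2 and Id3) and 1 to 3 with a library left out, with Id1, Id2 and Id3 without WT library 1 and Id1 and Id3 without WT library 4. BMP targets called were 3 with DESeq2, 0 with limma voom and 0 to 4 with a library left out, and ligands and antagonists were 4, 1 and 0 to 4. DESeq2 added Bambi, Atoh8, Bmp6 and Bmp7 to the calls in these lists. With a library left out, calls were 0 to 2 among receptors and SMADs, 0 to 1 among helix-loop-helix partners, 0 to 1 among cell cycle inhibitors and 0 to 2 among TGF-beta targets. The causes were not tested. Among genes that did not pass, the log2 fold change changed sign for Grem1 with limma voom (0.014), for Tcf3 (-0.0068) and Rpl5 (0.0013) with the replicate block, and with a library left out for Tgfbi (-0.58 to 0.046), Msx2 (-0.0034 to 0.18), Grem1 (-0.31 to 0.14), Tcf3 (-0.051 to 0.057), Fads1 (-0.12 to 0.087), Cnpy2 (-0.16 to 0.099), Mvk (-0.16 to 0.049) and Rpl5 (-0.015 to 0.0022).

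Deviations of same-numbered libraries correlated at 0.15, -0.20, -0.19 and 0.47, against -0.54 to 0.51 for libraries with different numbers. So few values cannot decide whether the numbers mark pairs. With the replicate number as a block, 0 genes were called (1596 at an unadjusted p under 0.05), and so 0 Id members, 0 BMP targets and 0 ligands or antagonists, and Id1 had a log2 fold change of -0.73 (adjusted p = 0.126, edgeR).

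Within-group r was 0.95 to 0.99 for Id2 and Id3 with a library left out, past the threshold in 9 of 9 cases. It was 0.44 to 0.87 for Id1 and Id2 and 0.30 to 0.87 for Id1 and Id3, and both passed only without IRE1KO library 4. For Id1 and Id4 it ranged from -0.17, without IRE1KO library 2, to 0.21. With the longest transcript, levels per kb became 11.3 for Id2 and 90.0 for Id3 in IRE1KO, and 125.1 for Id3 in WT. At 180 to 307 counts per library, Id4 had the largest counting error of the members. Its spread between IRE1KO libraries, 22.0%, was wider than the 6.34% that counting alone gives.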
